A study of Homo sapiens with 6 samples.

Results

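The genes that make, convert and remove the deoxynucleoside triphosphates (dNTPs) used to build DNA were followed in MDA-MB-231 cells. This established human line of triple-negative breast cancer was treated with BRL-50481, an inhibitor of the phosphodiesterase PDE7A. The genes followed were chosen by name: RRM1, RRM2, RRM2B, TYMS, DTYMK, DUT, DCTD, DCK and SAMHD1. All 9 are among the 15651 genes of the deposited table, and all 9 passed the filter on low values that left 15246 genes to test. RNA was sequenced from 3 libraries of DMSO-treated cells and 3 libraries of BRL-50481-treated cells, all grown in DMEM with fetal bovine serum, with no other agent or genetic change named. The treatment text of the labels and the study's methods give 50 μM for 72 h, while the treatment tag of the same samples gives 5 μM and 48 h. Both groups come from a single cell line treated in culture. The study calls the replicates biological, but no source says that they are separate cultures, so p-values measure the spread between these libraries.

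A cell makes its dNTPs mainly through ribonucleotide reductase, an enzyme of a large catalytic subunit and a small subunit that carries a radical, which turns ribonucleoside diphosphates into deoxyribonucleoside diphosphates. Thymidine nucleotides need a further branch, in which dUMP is methylated to dTMP and then phosphorylated. Salvage kinases add deoxynucleosides from outside this route, and a triphosphohydrolase breaks dNTPs down when they are not needed. Several of these transcripts are known as S-phase genes in dividing cells, and several of the enzymes are targets of cancer drugs.

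The libraries hold 30750573 to 33446984 reads on genes, and the least deep lies 8.06% below the deepest. The values are read counts that the authors divided by a size factor of each library, called normalized counts here. The markers expected in this line, VIM, CD44, EGFR, CAV1 and AXL, were all detected, with a summed level of 148500 to 203590 normalized counts per library. Each was called higher in BRL-50481-treated cells, by 8.61% (AXL) to 66.2% (EGFR), so this range includes the difference between the groups. The summed level of PGR, CDH1, EPCAM and KRT8, which were listed as low or absent, was 6585 to 8718, most of it from KRT8. CDH1 (161%) and KRT8 (18.8%) were called higher in BRL-50481-treated cells, EPCAM was called lower (−10.7%), and PGR did not pass the filter. ESR1, also on that list, was not among the genes of the deposited table. COL1A1 and PECAM1, markers of stromal and endothelial cells, summed to 661 to 891. PECAM1 was called higher in BRL-50481-treated cells, by 39.2%, and COL1A1 was not called. PTPRC, CD3E and ALB, also listed as markers of other cell types, were not among the genes of the deposited table. PDE7A mRNA itself had 406 ± 2.06 normalized counts with DMSO and 298 ± 40.6 with BRL-50481 (mean ± SD, n = 3 each). DMSO replicate 1 stood farthest from the other libraries of its group. Over genes with a mean of at least 50 normalized counts, the SD of a library's log2 difference from the mean of its group's other libraries was 0.212 for DMSO replicate 1 and 0.119 to 0.179 for the other 5. The DMSO libraries differed in how their values followed transcript length. Across 12077 genes, which are not independent replicates, Spearman's rho was taken between a library's deviation from its group mean and transcript length. It was 0.640 in DMSO replicate 1, −0.560 in replicate 2 and −0.332 in replicate 3, against −0.154 to 0.084 in the BRL-50481 libraries. With GC content, rho was −0.461, 0.471 and 0.122 in DMSO replicates 1, 2 and 3. In BRL-50481 replicates 1, 2 and 3 it was −0.452, 0.349 and 0.127. The log2 fold change itself followed transcript length with a rho of 0.221, and GC content with −0.072.

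Of the 9 dNTP supply genes, DCTD and RRM2 were higher in BRL-50481-treated cells, DCK and SAMHD1 were lower, and RRM1, RRM2B, TYMS, DTYMK and DUT did not pass the threshold. DCTD, dCMP deaminase, had the largest change of the 9, a rise of 38.6%, and the other 3 that passed moved by 10.6% to 14.1%. Genes were called with limma on log2(normalized count + 1), at an adjusted p under 0.05 over all genes tested. At this threshold 28.9% of all genes tested were higher and 29.8% were lower, 58.7% in either direction, so the share called here, 4 of 9 (44.4%), is not above the background. The median size of the log2 fold change, its sign disregarded, was 0.12 over the 9 genes and 0.33 over all genes tested, and 0.25 over the 4384 genes tested whose mean normalized count lies in the range of these 9. DCTD, at 0.47, lay above all of these medians, and the other 8 genes lay below both medians over genes outside the group. Of all genes tested, 8.04% were called with a change of more than 1 on the log2 scale, and of the 9 genes 0 were. The same 4 genes that were called were also those whose DMSO and BRL-50481 values were fully apart, as were the values of 64.2% of all genes tested. In RNA from whole cultures, fewer cells that express a gene and less RNA per cell cannot be told apart.

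**Figure D1:**
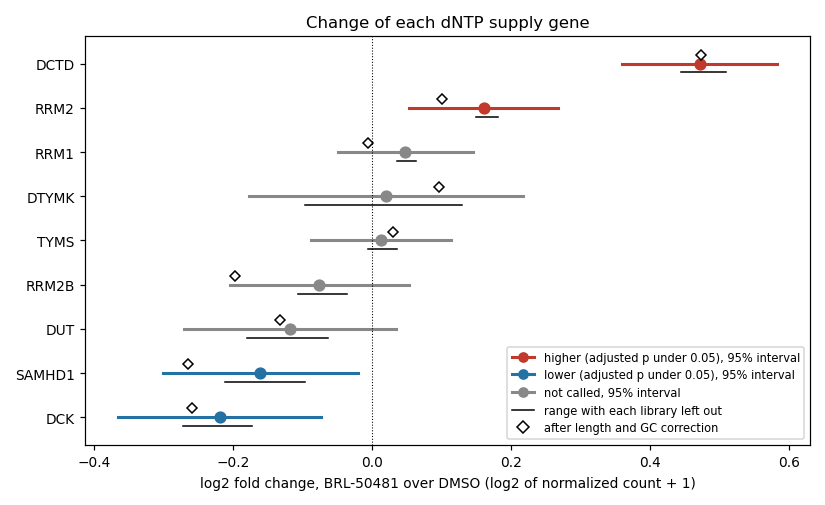
Log2 fold change of each dNTP supply gene, BRL-50481 over DMSO, with its 95% interval from limma (coloured line), the range with each of the 6 libraries left out (thin line) and the value after correction for transcript length and GC content (diamond). DCTD stands alone at 0.47, the intervals of RRM2, DCK and SAMHD1 lie just off 0, and those of the other 5 genes include 0.

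The promoter sequences of the 4 called genes and of TYMS are shown because RRM2 and TYMS are known as S-phase genes, whose promoters often carry E2F sites and CCAAT boxes, and because PDE7A degrades cAMP, whose response element holds TGACG. The 250 bases before the RefSeq start on GRCh38.p14 were searched on both strands for an E2F site (TTTGGCGC, TTTGCCGC, TTTCGCGC or TTTCCCGC), a CCAAT box (CCAAT), a CHR (TTTGAA) and the core of a cAMP response element (TGACG). Each window is printed 5′ to 3′ on the strand of its gene, with matches in capitals. The windows lie at chr2:10122489-10122738 on the plus strand (RRM2), chr4:182917387-182917636 on the minus strand (DCTD), chr4:70993399-70993648 on the plus strand (DCK), chr20:36951709-36951958 on the minus strand (SAMHD1) and chr18:657403-657652 on the plus strand (TYMS).
RRM2: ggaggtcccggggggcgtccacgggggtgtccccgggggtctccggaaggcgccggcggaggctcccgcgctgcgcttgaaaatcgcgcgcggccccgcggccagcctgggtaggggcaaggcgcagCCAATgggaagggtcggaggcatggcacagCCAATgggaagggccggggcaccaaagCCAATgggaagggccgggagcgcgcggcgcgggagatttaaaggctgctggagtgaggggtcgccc
DCTD: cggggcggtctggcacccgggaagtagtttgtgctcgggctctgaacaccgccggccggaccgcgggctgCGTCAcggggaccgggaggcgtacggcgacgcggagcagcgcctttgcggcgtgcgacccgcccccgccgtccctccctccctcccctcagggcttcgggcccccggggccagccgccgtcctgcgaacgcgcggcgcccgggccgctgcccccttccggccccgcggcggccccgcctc
DCK: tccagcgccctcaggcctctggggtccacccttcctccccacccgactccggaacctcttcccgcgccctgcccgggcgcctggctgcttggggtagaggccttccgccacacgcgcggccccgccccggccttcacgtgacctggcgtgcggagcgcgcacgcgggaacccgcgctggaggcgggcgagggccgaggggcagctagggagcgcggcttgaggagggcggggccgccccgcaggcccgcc
SAMHD1: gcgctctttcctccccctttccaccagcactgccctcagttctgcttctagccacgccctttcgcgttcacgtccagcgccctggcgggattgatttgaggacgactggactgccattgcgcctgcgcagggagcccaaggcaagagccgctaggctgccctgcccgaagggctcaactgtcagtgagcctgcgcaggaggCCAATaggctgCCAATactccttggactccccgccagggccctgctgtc
TYMS: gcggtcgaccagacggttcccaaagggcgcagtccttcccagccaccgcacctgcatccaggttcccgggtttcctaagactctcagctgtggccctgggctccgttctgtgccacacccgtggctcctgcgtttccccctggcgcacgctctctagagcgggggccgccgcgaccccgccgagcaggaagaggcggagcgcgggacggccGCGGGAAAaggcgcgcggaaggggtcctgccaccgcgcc
The windows printed for RRM2 and DCTD are each 1 of 2 in RefSeq. RRM2 holds 3 CCAAT boxes, which begin 123, 93 and 66 bases before the start, and SAMHD1 holds 2, at 49 and 38 bases. DCTD has a single core of a cAMP response element, read on the other strand, at 180 bases, which its other window does not hold, and TYMS a single E2F site at 39 bases. DCK has none of the 4 motifs in this window. Of 35116 windows of the same length, 2.79% hold an E2F site, 32% a CCAAT box, 13.3% a CHR and 21.2% the TGACG core. A window was found for 8 of the 9 genes, with several start sites for some, 13 windows in all. Among the genes not printed, the E2F site was also matched at 1 of the 4 starts of DUT, which held 2 of them, and the CCAAT box in RRM1 and DTYMK. The TGACG core was matched in DTYMK too, 33 bases before the start, and the CHR in RRM1, at 199 bases, and at the same start of DUT as the E2F site, at 214 and 129 bases. The other window of RRM2 holds a single CCAAT box at 249 bases. The full cAMP response element (TGACGTCA), which 1.65% of all windows hold, was in 0 of the 8 genes. These matches are letters in a window and say nothing on whether a factor was bound.

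RRM1 (chromosome 11 of hg38, 4094707 to 4138932, plus strand), the large catalytic subunit of ribonucleotide reductase, did not pass the threshold. Its normalized counts were 5897, 5681 and 5760.0 in DMSO and 6001, 5863 and 6055 in BRL-50481. The groups overlapped, since BRL-50481 replicate 2 lay below DMSO replicate 1. The difference was 3.36%, with a 95% interval of −3.38% to 10.6% (log2 fold change 0.048, adjusted p = 0.382).

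RRM2 (chromosome 2, 10120698 to 10211725, plus strand) encodes the small subunit that dividing cells make for DNA replication. The libraries gave normalized counts of 2469, 2578 and 2468 in DMSO and 2785, 2824 and 2787 in BRL-50481. Every BRL-50481 library lay above every DMSO library, and the coefficient of variation of the BRL-50481 values was 0.800%. The rise was 11.7%, with a 95% interval of 3.70% to 20.4% (log2 fold change 0.16, standard error 0.0498, adjusted p = 0.0139). It did not pass the threshold without BRL-50481 replicate 2 (adjusted p = 0.0558), without BRL-50481 replicate 3 (0.0521) or without DMSO replicate 3 (0.0612). With the correction for length and GC content RRM2 was still called higher, at a log2 fold change of 0.10 (adjusted p = 0.0386).

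RRM2B (chromosome 8, 102204502 to 102238961, minus strand) encodes the alternative small subunit, known as a target of p53 that supplies dNTPs outside S phase and for mitochondrial DNA. Normalized counts were 2012, 1825 and 1884 in DMSO and 1887, 1796 and 1742 in BRL-50481. The highest BRL-50481 library lay above the lower 2 of the DMSO libraries. The difference was −5.15%, with a 95% interval of −13.2% to 3.68% (log2 fold change −0.076, adjusted p = 0.289). The log2 fold change was −0.037 without DMSO replicate 1, −0.050 without BRL-50481 replicate 3 and −0.11 without DMSO replicate 2, and none of these passed. RRM2B has a long transcript of 4774 bases, and with the correction for length and GC content it was called lower, at −0.20 (adjusted p = 0.000449). With this correction 5550 of all genes tested were called lower, against 4546 in the main fit.

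The balance of the subunits was read as a ratio within each library, with counts per kilobase of the canonical GENCODE transcript. The ratio of RRM2 to RRM1 was 0.404, 0.438 and 0.413 in DMSO and 0.447, 0.465 and 0.444 in BRL-50481. It was 1.08-fold higher after treatment, and the groups did not overlap (two-sided exact permutation test over the 6 libraries, p = 0.1, the smallest that 3 against 3 allow). The ratio of RRM2B to RRM2 was 0.556, 0.483 and 0.521 in DMSO and 0.462, 0.434 and 0.427 in BRL-50481. RRM2B thus made up 34.2% ± 1.59 of the small-subunit transcripts with DMSO and 30.6% ± 0.905 with the inhibitor (mean ± SD over 3 libraries each), and these values did not overlap either (log2 ratio lower by 0.24 with treatment, exact permutation p = 0.1). The ratios of single genes to each other share their libraries and are no further evidence for the changes of the genes in them. How often ratios of other gene pairs are free of overlap was not computed, and 64.2% of single genes tested were.

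DCTD (chromosome 4, 182890060 to 182917936, minus strand), which deaminates dCMP to dUMP and so feeds thymidylate synthesis, had the smallest adjusted p of the 9 genes. Its normalized counts were 2815, 2767 and 2781 in DMSO and 3931, 4006 and 3663 in BRL-50481. The coefficient of variation was 0.877% in DMSO, and the lowest BRL-50481 library lay far above all DMSO libraries. The rise of 38.6% had a 95% interval of 28.3% to 49.7% (log2 fold change 0.47, standard error 0.0517, adjusted p = 5.24e-06). It was called under all 17 alternatives, with a log2 fold change of 0.44 to 0.52.

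DUT (chromosome 15, 48331011 to 48343373, plus strand), the dUTPase that keeps uracil out of DNA and is the other source of dUMP, did not pass the threshold. The libraries gave normalized counts of 1958, 2153 and 2303 in DMSO and 1988, 1827 and 2089 in BRL-50481. DMSO replicate 1 lay among the BRL-50481 libraries, and the groups overlapped. The difference was −7.88%, with a 95% interval of −17.1% to 2.37% (log2 fold change −0.12, adjusted p = 0.166). Without DMSO replicate 1 it was called lower, at −0.18 (adjusted p = 0.00319), and with the correction for length and GC content it was −0.13 (adjusted p = 0.0477). Of all genes tested, 4933 and 5550 were called lower under these settings, against 4546 in the main fit. The ratio of DCTD to DUT per kilobase was 1.597, 1.427 and 1.341 in DMSO and 2.196, 2.435 and 1.947 in BRL-50481. It was 1.50-fold higher after treatment with no overlap between the groups (exact permutation p = 0.1).

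TYMS (chromosome 18, 657653 to 673578, plus strand), thymidylate synthase, converts dUMP to dTMP with a folate as methyl donor and is the target of 5-fluorouracil. Normalized counts were 5137, 5210.4 and 5276 in DMSO and 5388, 5091 and 5286 in BRL-50481. BRL-50481 replicates held both the highest and the lowest value. The difference was 0.887%, with a 95% interval of −5.89% to 8.15% (log2 fold change 0.013, adjusted p = 0.832). ENOSF1, whose exons cover 60.0% of the TYMS transcript on the opposite strand, rose from 492 ± 6.84 to 856 ± 69.8 normalized counts (mean ± SD, n = 3 each, adjusted p = 1.86e-06). It was chosen after its values were seen, and the authors counted reads with regard to strand.

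DTYMK (chromosome 2, 241675747 to 241686944, minus strand), the kinase that turns dTMP into dTDP, showed the widest spread. Its normalized counts were 1135, 1555 and 1347 in DMSO and 1366, 1352 and 1341 in BRL-50481. All BRL-50481 libraries lay between the lowest and the highest DMSO library, and the coefficient of variation was 15.6% in DMSO and 0.914% in BRL-50481. The difference was 1.38%, with a 95% interval of −11.6% to 16.3% (log2 fold change 0.020, adjusted p = 0.868), so changes within this interval are not excluded. Its transcript of 1051 bases is the shortest of the 9, and DMSO replicate 1 lay 0.233 below and replicate 2 lay 0.220 above the DMSO mean on the log2 scale. The log2 fold change was −0.097 without DMSO replicate 1 and 0.13 without DMSO replicate 2, and neither passed.

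**Figure D2:**
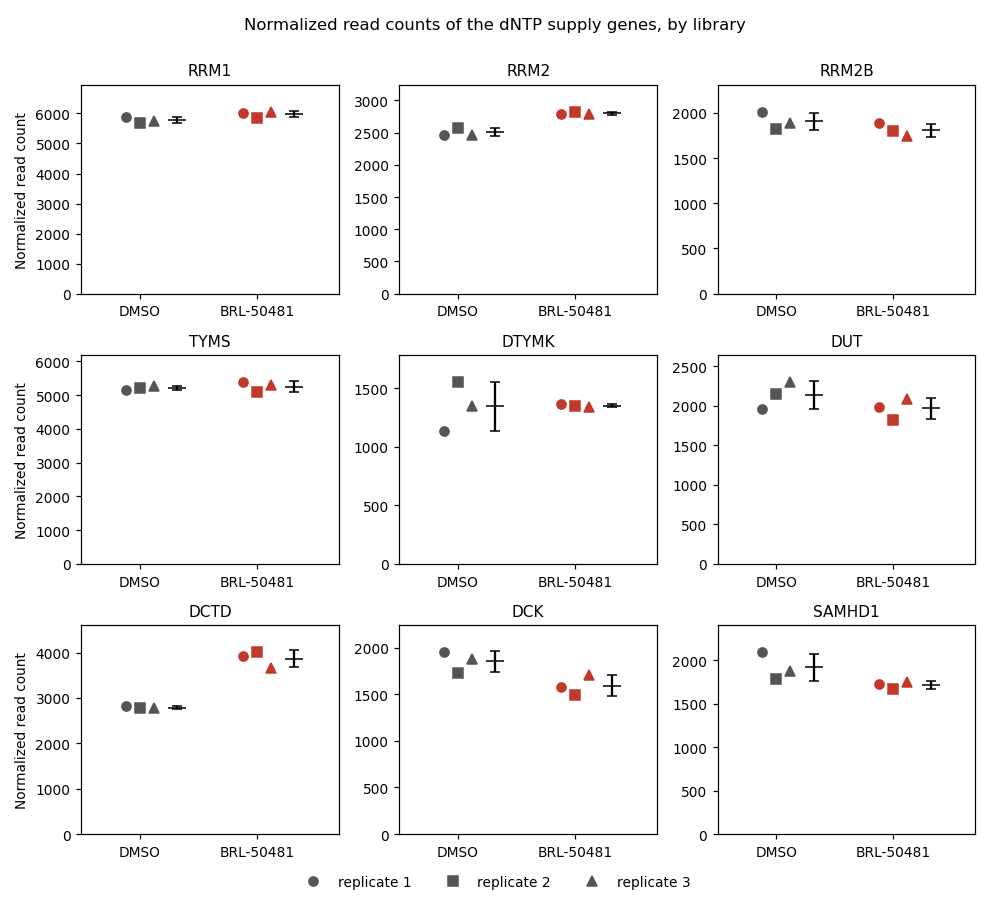
Normalized read count of each dNTP supply gene in the 3 DMSO (grey) and 3 BRL-50481 libraries (red), with the mean and SD of each group in black and the replicate number given by the marker. The groups are apart for RRM2, DCTD, DCK and SAMHD1, and the DMSO libraries of DTYMK spread from 1135 to 1555.

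DCK (chromosome 4, 70992538 to 71030914, plus strand), the salvage kinase of deoxycytidine that also activates cytarabine and gemcitabine, was lower. The libraries gave normalized counts of 1951, 1731 and 1876 in DMSO and 1574, 1491 and 1711 in BRL-50481. The groups were apart by a narrow gap, between DMSO replicate 2 and BRL-50481 replicate 3. The fall was 14.1%, with a 95% interval of −22.4% to −4.95% (log2 fold change −0.22, standard error 0.0676, adjusted p = 0.0132). It did not pass without BRL-50481 replicate 1 (−0.21, adjusted p = 0.0515) or without BRL-50481 replicate 2 (−0.17, adjusted p = 0.0797). MOB1B shares 199 bases of exon with DCK on the same strand, 7.94% of the DCK transcript, and had 2265 ± 294 normalized counts with DMSO and 2395 ± 110.5 with BRL-50481 (mean ± SD, n = 3 each, adjusted p = 0.369).

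SAMHD1 (chromosome 20, 36890229 to 36951893, minus strand), the triphosphohydrolase that degrades dNTPs and restricts retroviruses, was called lower by a narrow margin. Normalized counts were 2093, 1784 and 1883 in DMSO and 1723, 1665.0 and 1751 in BRL-50481. The groups did not overlap, and DMSO replicate 1 was the highest. The fall was 10.6%, with a 95% interval of −18.9% to −1.41% (log2 fold change −0.16, standard error 0.0651, adjusted p = 0.0478). The call was lost without DMSO replicate 1 (−0.097, adjusted p = 0.102), DMSO replicate 3 (adjusted p = 0.0827) or BRL-50481 replicate 1, 2 or 3 (adjusted p = 0.104, 0.156 and 0.0841). It was also lost with median centring (0.102) and in DESeq2 (0.0540). With the correction for length and GC content it was −0.27 (adjusted p = 7.59e-05). SAMHD1 to RRM1, the breakdown enzyme beside the synthetic one, was 0.240, 0.212 and 0.221 per kilobase in DMSO and 0.194, 0.192 and 0.195 in BRL-50481, again without overlap (exact permutation p = 0.1).

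**Figure D3:**
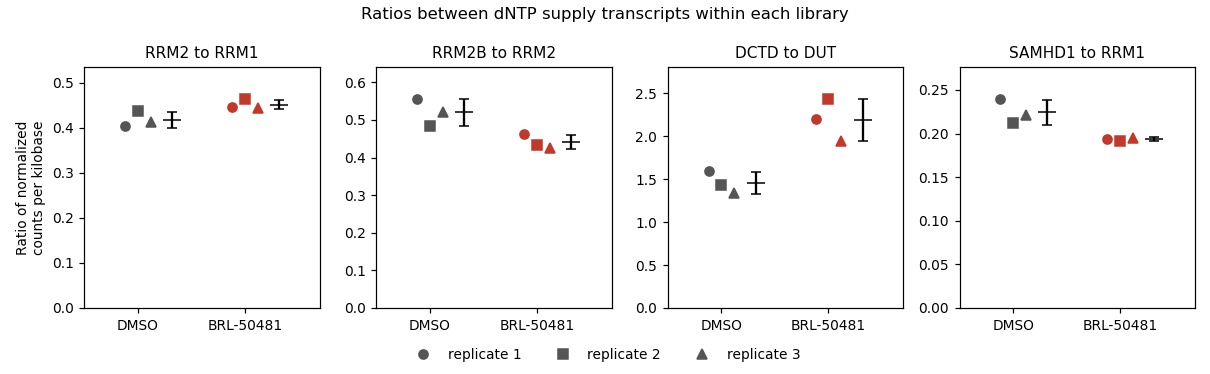
Ratios of normalized counts per kilobase of transcript between pairs of dNTP supply genes, in each of the 3 DMSO (grey) and 3 BRL-50481 libraries (red), with mean and SD in black. All 4 ratios are free of overlap between the groups, with DCTD to DUT rising from 1.46 ± 0.130 to 2.19 ± 0.244. The share of other gene pairs without overlap was not computed, and 64.2% of single genes tested had none.

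Per kilobase of transcript, TYMS was the most abundant of the 9 in DMSO, at 3229 ± 43.2 normalized counts, followed by RRM1 at 1839 ± 34.8 and DCTD at 1446 ± 12.7. DTYMK (1280.4 ± 199.6), DUT (999 ± 81.0), RRM2 (769 ± 19.5) and DCK (739 ± 44.6) came next, and SAMHD1 (413 ± 33.9) and RRM2B (399 ± 20.1) were lowest (SD, n = 3 each). Neighbours whose libraries overlapped in this order were DCTD and DTYMK, RRM2 and DCK, and SAMHD1 and RRM2B. In BRL-50481, DCTD at 2006 ± 93.5 lay beside RRM1 at 1901 ± 31.5 per kilobase, where their libraries overlapped, and RRM2 at 859 ± 6.87 lay above DCK without overlap at 635 ± 44.3. By the mean over all 6 libraries, TYMS lay at the 95.4th percentile per kilobase and RRM2B at the 62.6th. These percentiles are among the genes tested for which a transcript length was found. The lengths are those of 1 canonical transcript a gene, and the isoforms in use were not measured.

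The other genes of dNTP metabolism are given by list. Of all genes tested, 28.9% were higher and 29.8% lower, 58.7% in either direction. In the range of mean normalized count of the 9 genes, 69.6% were called. Among 11 genes tested for the folate cycle that serves TYMS, 6 were higher and 2 lower (median log2 fold change 0.27, against 0.015 over all genes tested). SHMT2, the mitochondrial serine hydroxymethyltransferase and the most abundant of them, rose from 9291 to 11238 normalized counts (log2 fold change 0.27, adjusted p = 0.000199), and the folate transporter SLC46A1 fell by 0.41. Of 17 salvage and nucleotide kinase or nucleoside transporter genes, 3 were higher and 9 lower (median −0.13). The mitochondrial thymidine kinase TK2 rose most (0.55), NME1, a nucleoside diphosphate kinase, fell most (−0.96), and the UMP/CMP kinase CMPK1, the most abundant, was slightly lower (−0.13).

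Of 14 genes tested for deoxynucleotide breakdown and pool cleaning, 5 were higher and 5 lower (median −0.042). The shares over all genes tested were 28.9% higher and 29.8% lower. DCTPP1, a dCTP pyrophosphatase, fell from 902 to 361 normalized counts (log2 fold change −1.32, adjusted p = 2.15e-07), and the purine nucleoside phosphorylase PNP, the most abundant, fell by 0.88. NUDT18, a nucleotide hydrolase, rose from 21.7 to 98.9 (log2 fold change 2.14). Of 11 genes of the thioredoxin and glutaredoxin families and their iron-sulfur partners, which include the electron donors of ribonucleotide reductase, 0 were higher and 7 lower (median −0.31). TXNRD1, thioredoxin reductase, fell by 0.39 from a mean of 42228 normalized counts. The steepest fall was that of GLRX5 (−0.58), which serves iron-sulfur cluster assembly in mitochondria and is not an electron donor of the reductase.

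The dNTP supply genes were set beside lists of cell-cycle, p53 and interferon genes with which their members are commonly grouped. Of 24 S-phase genes, 0 were higher and 20 lower (median log2 fold change −0.76), where 28.9% of all genes tested were higher and 29.8% lower. The most abundant was MCM7 (−0.84), a subunit of the replicative helicase, and the largest fall was that of CCNE2 (−1.90), cyclin E2. RRM1, RRM2 and TYMS, at 0.048, 0.16 and 0.013, lay above the median of that list. Of 22 genes of G2 and mitosis, 21 were higher and 0 lower (median 0.84), with TOP2A (1.03) the most abundant and CCNB1 (1.65), cyclin B1, the most raised. The part of this difference in cell-cycle genes in the values of the dNTP genes was not tested.

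Among 20 p53 target genes, where RRM2B is usually placed, 2 were higher and 8 lower (median −0.073). Over all genes tested the shares were 28.9% and 29.8%. CDKN1A, the most abundant, was lower (−0.41), SESN2 rose most (0.77) and AEN fell most (−1.15). Of 20 interferon-stimulated genes, a group to which SAMHD1 is often assigned, 13 were higher and 1 lower (median 0.50). IFI44 rose most (1.60), and IRF7 was the 1 that fell (−0.43), while SAMHD1 lay at −0.16. None of these lists was tested as a set.

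**Figure D4:**
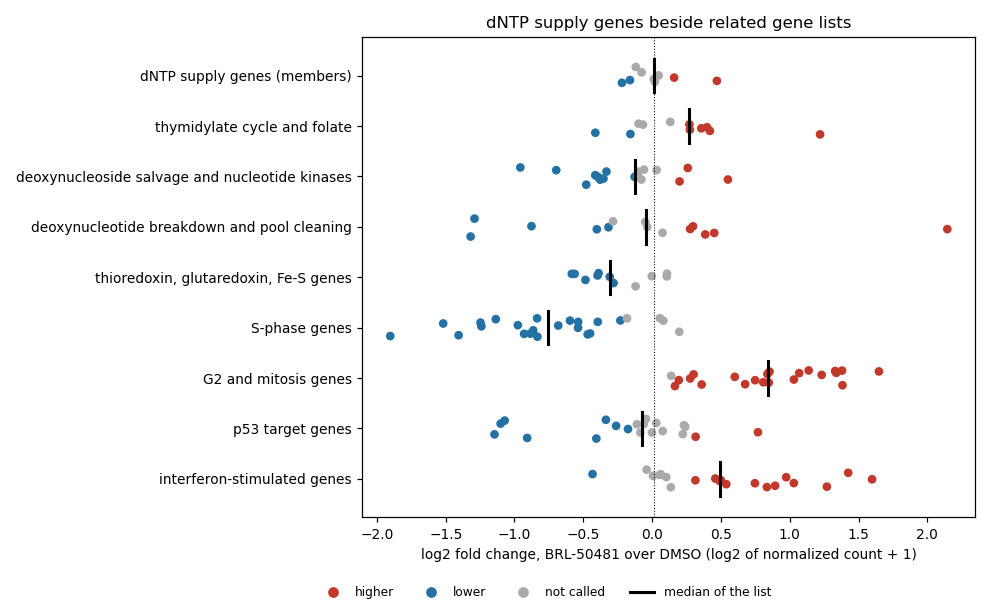
Log2 fold change, BRL-50481 over DMSO, of each gene tested in the dNTP supply group and in 8 related lists, with genes called higher in red, called lower in blue and not called in grey, the median of each list as a black bar and the median of all genes tested as a dotted line. The dNTP supply genes lie between −0.22 and 0.47, with the S-phase list mostly to their left and the G2 and mitosis list mostly to their right.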

How the data were processed

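RNA sequencing of 6 libraries from MDA-MB-231 cells was analysed, 3 treated with DMSO and 3 with BRL-50481, grouped by the titles in their labels. The authors mapped single-end 76-base reads to hg38 using STAR 2.7.1a, counted them by gene and strand with HTSeq on UCSC annotation, and normalized them with DESeq2 1.28. The deposited signal is the read count of a gene divided by the size factor of its library. The deposited table also holds the authors' own DESeq2 comparison and the mean over libraries, which were not used.

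Genes that reached 4 normalized counts in 3 or more libraries were kept, as the methods of the study state, and log2 of the normalized count with a pseudocount of 1 was compared between the groups with limma 3.58.1 (eBayes with a trend) in R 4.3.3. P-values were adjusted by Benjamini-Hochberg over the 15246 genes tested. Every value (100%) is a whole multiple of the value of 1 read, to within 0.001 of a read, so edgeR 4.0.16 called 4358 genes higher and 4574 lower on the recovered reads, DESeq2 1.42.0 4097 and 4356. Ratios were compared by a two-sided exact permutation test. The code was tested on simulated counts. Transcript length, GC content and positions came from GENCODE release 44 on hg38, which gave length and GC content for 96.5% of the genes, and promoters from RefSeq on GRCh38.p14. The correction for length and GC content subtracted a loess curve (span 0.5) from each library. The dNTP supply genes and all lists were chosen with earlier results of these data known. Named beside them are the most abundant member of each list and the called member that moved most in each direction, at a mean normalized count of at least 50, genes that share exons with one of the 9 on its strand, and PDE7A. Some genes that this rule names are not reported here. The labels describe RNA selected with oligo-dT and the series record describes depletion of ribosomal RNA.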

Additional observations from a re-analysis of the deposited data

How the results depend on the processing

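The rise of DCTD kept its direction and its call under all 17 alternatives, and RRM2 was called in 14 of them, DCK in 14, SAMHD1 in 8, DUT in 2, RRM2B in 1 and RRM1, TYMS and DTYMK in none. Without a trend in limma, DCK (−0.22, adjusted p = 0.0579) and SAMHD1 (−0.16, 0.112) lost their calls, so that 0 of the 9 genes were lower. SAMHD1 was also not called with DESeq2 (−0.16), median centring (−0.13) or quantile normalization (−0.11, adjusted p = 0.138), each of which left 1 gene lower. The correction for transcript length and GC content called DUT (−0.13) and RRM2B (−0.20) lower, 4 of the 9 genes lower in all, and turned RRM1 to −0.0056. Over all genes tested this correction called 5550 lower, against 4546 in the main fit. The median log2 fold change over all genes went from 0.015 to −0.032. With each library left out in turn, 1 to 2 of the 9 were higher and 0 to 2 lower, and the log2 fold changes spanned −0.27 to −0.17 for DCK, −0.097 to 0.13 for DTYMK, −0.18 to −0.063 for DUT, 0.035 to 0.062 for RRM1, 0.15 to 0.18 for RRM2, −0.11 to −0.037 for RRM2B, −0.21 to −0.097 for SAMHD1 and −0.0055 to 0.035 for TYMS. These fits have fewer libraries, and other causes were not tested. Across all genes, 3751 to 4876 were then higher and 4027 to 4933 lower. The 4 ratios, recomputed under 9 of the alternatives (both pseudocounts, the length and GC correction and each library left out), kept their direction in these. The related lists were recounted only with median centring, in edgeR and with the length and GC correction. S-phase genes had 1 higher with median centring. The thioredoxin and glutaredoxin list had 2 higher with the length and GC correction. The p53 list had 5 higher with that correction and 4 with median centring. Over all genes tested, 4743 were higher with median centring and 4298 with the correction, against 4400 in the main fit.

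Whether the replicate numbers pair the libraries could not be settled, and the main fit left pairing out. The correlation of same-numbered deviations was 0.121, 0.104 and 0.051, and that of differently numbered ones was −0.159 to 0.061. BRL-50481 replicate 3 correlated best with DMSO replicate 2 (0.061), and every other library with its own number. With the replicate block 4440 genes were higher and 4589 lower, and 2 of the 9 were higher and 2 lower.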
